A study of Mus musculus with 19 samples.

Results

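Base excision repair and single-strand break repair remove small base lesions and nicks from DNA. The genes described here are 9 of this pathway, chosen by name: *Parp1*, *Xrcc1*, *Lig3*, *Aptx*, *Apex1*, *Polb*, *Ung*, *Ogg1* and *Tdp1*. All 9 were among the 51912 genes counted in every library, and all 9 passed the filter on low counts in each comparison. Their expression was compared in the E13.5 cerebral cortex of 3 groups of mouse embryos on a mixed C57BL/6 and 129 background, with 1 RNA-seq library per embryo. The 7 ctrl embryos are labelled control, and the labels give no alleles for them. The 5 cKO-E embryos (*Emx1* Cre/+, *Ino80* fl/fl) were conditional mutants of *Ino80*, the ATPase of a nucleosome remodeler. The 7 dKO-E embryos carried the same alleles together with *Trp53* fl/fl, the floxed gene for p53, as conditional double mutants. *Emx1*-Cre recombines in cortical progenitors and their descendants, so interneurons, microglia and vessels of the same tissue keep both genes. These are bulk tissue values, in which fewer cells of a type and less RNA per cell cannot be told apart.

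In base excision repair, a DNA glycosylase such as UNG (uracil) or OGG1 (8-oxoguanine) removes the damaged base, and APEX1 cuts the backbone at the empty site. POLB fills the gap, and LIG3, held by the scaffold protein XRCC1, seals the nick. PARP1 binds a nick, makes poly(ADP-ribose) and thereby recruits XRCC1. APTX and TDP1 clean DNA ends that a ligase cannot use: APTX removes AMP from aborted ligations, and TDP1 removes topoisomerase I peptides. Loss of XRCC1, APTX or TDP1 function underlies inherited ataxias in humans, and XRCC1 is needed in the developing mouse brain.

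Of the 9 genes, 3 differed between dKO-E and ctrl, where 15.5% of all genes tested did: *Xrcc1* and *Ogg1* were higher and *Tdp1* was lower in dKO-E. *Xrcc1* was also higher in dKO-E than cKO-E, where 15.0% of all genes were called in either direction. *Ogg1* and *Tdp1* were not called between the mutants. Against ctrl, the log2 fold change of *Tdp1* was −0.22 in dKO-E and −0.23 in cKO-E, where it was not called. None of the 9 passed the threshold in edgeR's quasi-likelihood test between cKO-E and ctrl, where 17.2% of all genes did. In the same test 3 of 9 had an unadjusted p under 0.05, and 29.8% of all genes did. Of the 4 genes on which these results turn, *Parp2* among them as the pathway gene with the largest fold changes, the sequence before the transcription start is shown. Each line holds the 250 bases upstream of a RefSeq transcript start on GRCm38.p6, 5′ to 3′ along the gene, in lower case.

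*Xrcc1*, chr7:24546449-24546698, plus strand: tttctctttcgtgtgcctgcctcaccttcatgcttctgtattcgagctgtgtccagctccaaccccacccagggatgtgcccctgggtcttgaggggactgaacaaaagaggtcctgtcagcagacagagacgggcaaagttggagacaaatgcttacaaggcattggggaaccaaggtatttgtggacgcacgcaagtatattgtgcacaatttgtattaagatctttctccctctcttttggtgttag
*Ogg1*, chr6:113326726-113326975, plus strand: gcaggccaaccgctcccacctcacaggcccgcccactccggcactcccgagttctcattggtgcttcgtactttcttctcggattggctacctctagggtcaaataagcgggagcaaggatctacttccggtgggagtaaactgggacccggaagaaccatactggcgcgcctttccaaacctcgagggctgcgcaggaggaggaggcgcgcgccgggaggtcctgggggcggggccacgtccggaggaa
*Tdp1*, chr12:99884268-99884517, plus strand: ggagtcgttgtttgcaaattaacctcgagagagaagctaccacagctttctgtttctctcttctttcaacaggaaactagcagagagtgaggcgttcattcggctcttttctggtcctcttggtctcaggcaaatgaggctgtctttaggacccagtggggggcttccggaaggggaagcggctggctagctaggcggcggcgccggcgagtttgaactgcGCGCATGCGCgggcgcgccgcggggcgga
*Parp2*, chr14:50807666-50807915, plus strand: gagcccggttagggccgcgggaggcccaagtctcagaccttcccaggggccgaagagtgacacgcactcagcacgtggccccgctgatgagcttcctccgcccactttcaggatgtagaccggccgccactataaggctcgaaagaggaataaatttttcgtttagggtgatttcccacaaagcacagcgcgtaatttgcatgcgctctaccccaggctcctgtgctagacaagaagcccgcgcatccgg

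Capitals mark the letters of an NRF1 motif, GCGCATGCG, which was searched on both strands of each window of 250 bases before to 50 after the start. In *Tdp1* this motif was matched at position −29 on the gene strand and, overlapping it, at −28 on the other strand. It was in 1.75% of all 32851 windows and, of the 8 genes with a window, in that of *Tdp1*. The YY1 motif AANATGGC (6.05% of all windows) and the E2F motifs TTTCCCGC or TTTGGCGC (1.56%) were in none of the 9 windows of these 8 genes. *Polb* had no window in the table. The *Xrcc1* window lies before a RefSeq start that is 410 bases downstream of the start of the gene in GENCODE, so these bases are inside the annotated gene. In the *Parp2* window, 102 bases belong to *Rpph1*, the RNA subunit of RNase P, which is read in the opposite direction and starts 74 bases from *Parp2*. The RefSeq start of *Parp2* is 75 bases downstream of its start in GENCODE, so the last 75 bases shown are inside the annotated gene. A match or its absence describes these letters alone.

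The libraries held between 820915 and 8095810 counts on genes (median 2952788), and a count of 3, the smallest taken as told from 0, stood for 0.371 to 3.65 CPM. All values are given as CPM, counts per 1000000 counts of the library after scaling with TMM factors over the 19 libraries. By the labels, dKO-E came from litters 1 and 2, cKO-E from litters 3, 4, 5, 6 and 7, and ctrl from litters 1, 4, 5 and 7. The dKO-E and cKO-E embryos shared no litter, so litter and genotype cannot be told apart between them. The labels also give a batch, without saying of what: batch 1 held 4 ctrl, 3 cKO-E and 4 dKO-E embryos, batch 2 held 3, 2 and 2, and batch 3 held 1 dKO-E embryo. Females and males numbered 4 and 3 in ctrl, 4 and 1 in cKO-E, and 2 and 5 in dKO-E. The p-values measure the spread between these embryos, some of which were littermates. Markers of the labelled tissue were present: 6 of 7 genes of apical progenitors summed to 817 to 1062 CPM per library and 4 of 4 genes of intermediate progenitors to 283 to 451, while *Sox2* and *Tubb3*, the defining markers of progenitors and neurons, were listed at 0 counts in all 19 libraries. Both lie wholly inside the span of a longer gene of the same strand, *Sox2ot* and *Gm20388*, as do 419 protein-coding genes in all, of which 99.3% were at 0 in every library, so these zeros are no measure of expression. Of 789 that lie inside a gene of the opposite strand alone, 27.1% were at 0, and of the 20662 others 18.7%. The counts were thus taken by strand over whole gene spans, introns included, and the 9 genes share at most 0.5% of their spans with a gene of the same strand. *Ino80* summed over the whole gene, introns included, was higher than in ctrl by 0.48 on the log2 scale for cKO-E (SE 0.07, adjusted p = 7.92e-05) and by 0.62 for dKO-E (SE 0.06, adjusted p = 8.84e-07), and gene sums do not show the deletion of single exons. *Trp53* was lower in dKO-E than in ctrl (log2 fold change −0.36, SE 0.10, adjusted p = 0.0196). Between dKO-E and cKO-E the log2 fold change of *Trp53* was −0.18 (SE 0.11, adjusted p = 0.322 in edgeR's quasi-likelihood test). Between cKO-E and ctrl it was −0.17 (SE 0.10, adjusted p = 0.300 in the same test), and neither was called.

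In ctrl cortex the 9 genes spanned a wide range of expression. Levels between genes were compared as mean CPM per kilobase of exon in ctrl and, because introns were counted, per kilobase of the whole gene. Per kilobase of exon, *Parp1* was highest at 42.4 ± 1.65 CPM per kilobase (SD, n = 7) and stood above 93.8% of 11290 expressed genes. *Polb* followed at 24.9 ± 3.18, *Apex1* at 13.1 ± 1.29 and *Tdp1* at 10.7 ± 0.918. The ligation pair followed, with *Xrcc1* at 7.89 ± 0.877 and *Lig3* at 7.12 ± 0.696. *Aptx* stood at 4.71 ± 0.434, and the glycosylase genes *Ung* at 2.15 ± 0.818 and *Ogg1* at 1.68 ± 0.381 were lowest, above 13.8% and 9.49% of the genes. The SD intervals overlapped for the neighbours *Xrcc1* and *Lig3* and for *Ung* and *Ogg1*, and for no other neighbours in this order. Per kilobase of the whole gene the order changed, and *Apex1*, the shortest of the 9, was highest at 8.59 ± 0.845 (SD, n = 7), before *Parp1* at 6.95 ± 0.270 and *Polb* at 3.88 ± 0.495. *Lig3* stood at 2.24 ± 0.219 and *Xrcc1* at 1.69 ± 0.188. *Aptx* (1.33 ± 0.123), *Ung* (1.32 ± 0.50) and *Tdp1* (1.21 ± 0.104) overlapped, and *Ogg1* was lowest again at 0.454 ± 0.103.

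**Figure D1:**
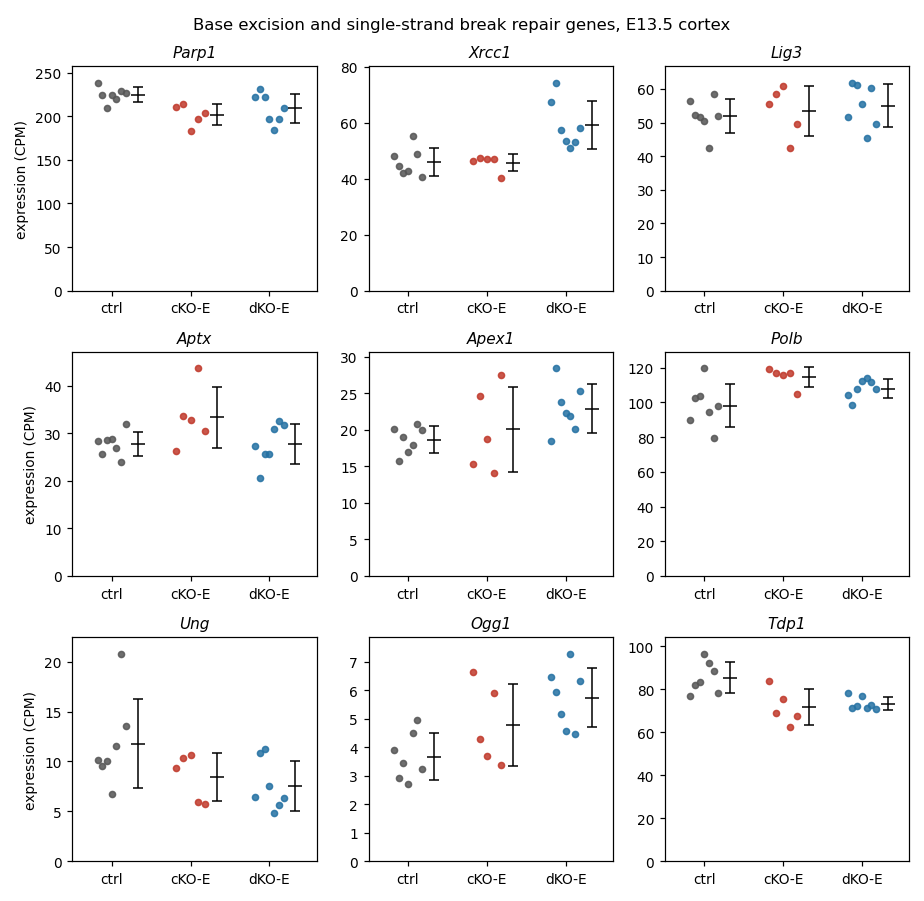
Expression of the 9 genes in CPM (y axis, from 0) in each embryo, with 1 point per library for ctrl (grey, n = 7), cKO-E (red, n = 5) and dKO-E (blue, n = 7), and the mean ± SD of each group in black beside the points. *Xrcc1* in dKO-E sits between 51.0 and 74.2 CPM, above all 5 cKO-E embryos, and *Tdp1* in dKO-E lies between 70.6 and 78.1 CPM, with 6 of 7 embryos below every ctrl embryo.

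*Xrcc1* (ENSMUSG00000051768.9, chromosome 7 of GRCm38, 24546289 to 24573440, plus strand), the scaffold of single-strand break repair, had the smallest p of the 9. In ctrl it ranged from 40.5 to 55.2 CPM with a median of 44.5. Embryos A to E of cKO-E were at 46.3, 47.6, 47.1, 47.2 and 40.3 CPM. The dKO-E embryos ranged from 51.0 to 74.2 CPM with a median of 57.3. The cKO-E embryos lay among the ctrl embryos, with embryo E just under them, 4 of 7 dKO-E embryos were above every ctrl embryo, and all 7 were above every cKO-E embryo. The mean was 46.0 ± 5.11 CPM in ctrl (SD, n = 7), 45.7 ± 3.05 in cKO-E (n = 5) and 59.2 ± 8.52 in dKO-E (n = 7).

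The log2 fold change of *Xrcc1* between dKO-E and ctrl was 0.38 (SE 0.09, 95% interval 0.18 to 0.57, adjusted p = 0.0100 in edgeR's quasi-likelihood test). Against cKO-E it was 0.39 (SE 0.10, 95% interval 0.18 to 0.60, adjusted p = 0.0136). Between cKO-E and ctrl it was −0.00 (SE 0.09), with a 95% interval of −0.19 to 0.18. When embryos were left out one by one, the 2 differences that passed stayed past the threshold, at 0.32 to 0.42 against ctrl and 0.32 to 0.42 against cKO-E. By batch, the fold change against ctrl was 0.49 in batch 1 (adjusted p = 0.0134) and 0.17 in batch 2 (adjusted p = 0.656), and against cKO-E it was 0.42 in batch 1 (adjusted p = 0.0590) and 0.35 in batch 2 (adjusted p = 0.504). In litter 1, the 3 dKO-E embryos were at 67.5, 74.2 and 57.3 CPM and the 2 ctrl embryos at 48.3 and 44.5. The 4 dKO-E embryos of litter 2 were at 53.6, 51.0, 53.1 and 58.0 CPM.

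**Figure D2:**
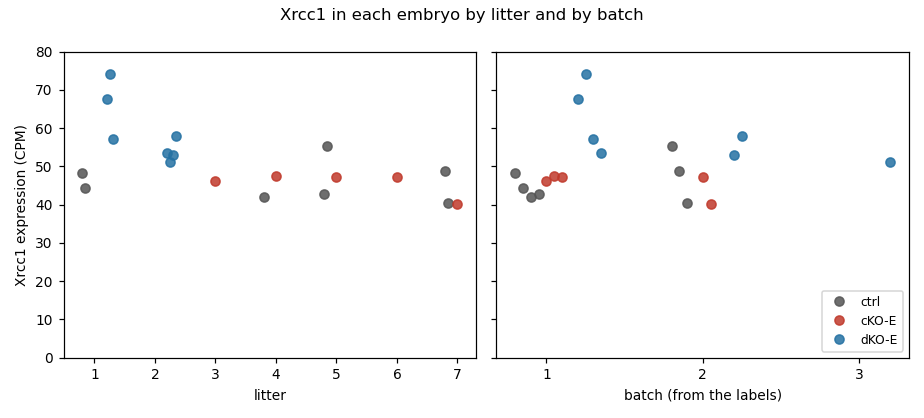
*Xrcc1* expression in CPM (y axis, from 0) in each of the 19 embryos by litter (left) and by batch (right), coloured by group. The 3 dKO-E embryos of litter 1, between 57.3 and 74.2 CPM, are above their 2 ctrl littermates, and litter 2 holds dKO-E embryos alone, between 51.0 and 58.0 CPM.

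*Lig3* (ENSMUSG00000020697.16, chromosome 11, 82781108 to 82804274), whose protein XRCC1 carries to the nick, showed no such difference. In ctrl it ranged from 42.4 to 58.3 CPM with a median of 51.9. The 5 cKO-E embryos were at 55.6, 58.5, 60.8, 42.5 and 49.5 CPM, and in dKO-E they ranged from 45.4 to 61.7 with a median of 55.7. The 3 groups overlapped over nearly their whole ranges. The 95% interval of the log2 fold change was −0.06 to 0.26 for dKO-E against ctrl, −0.12 to 0.25 for cKO-E against ctrl and −0.14 to 0.23 for dKO-E against cKO-E. *Lig3* shares 1826 bases of exon with *Rffl* on the opposite strand, whose log2 fold change between dKO-E and cKO-E was 0.51 (SE 0.13, adjusted p = 0.0124).

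*Parp1* (ENSMUSG00000026496.11, chromosome 1, 180568924 to 180601254), the main sensor of strand breaks, was the highest of the 9 per kilobase of exon. It ranged from 209 to 238 CPM in ctrl with a median of 225. Embryos A to E of cKO-E were at 211, 214, 183, 197 and 204 CPM, and in dKO-E the range was 185 to 231 with a median of 210. In cKO-E 3 of 5 embryos, and in dKO-E 3 of 7, were below every ctrl embryo. Neither log2 fold change passed the threshold: it was −0.15 for cKO-E (SE 0.06, adjusted p = 0.0832) and −0.11 for dKO-E (SE 0.06, adjusted p = 0.204). The 95% interval between the mutants was −0.09 to 0.19.

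Of the 2 glycosylase genes, *Ogg1* (ENSMUSG00000030271.14, chromosome 6, 113326972 to 113335068) was higher in dKO-E. It ranged from 2.71 to 4.98 CPM in ctrl with a median of 3.46, from counts of 6 to 15 per library. The 5 cKO-E embryos were at 6.66, 4.30, 3.68, 5.90 and 3.39 CPM. In dKO-E it ranged from 4.48 to 7.29 CPM with a median of 5.93, from counts of 6 to 41. Of 7 dKO-E embryos 5 were above every ctrl embryo, and the cKO-E values spanned both groups. *Ogg1* had a log2 fold change of 0.61 between dKO-E and ctrl (SE 0.19, 95% interval 0.20 to 1.01, adjusted p = 0.0385), or 1.53-fold. It was 0.38 between cKO-E and ctrl (SE 0.25, adjusted p = 0.343) and 0.24 between dKO-E and cKO-E (SE 0.24, adjusted p = 0.569). The call rests on few counts: it was lost without any 1 of ctrl A, B, C, D or I or dKO-E A, B, E or G, at log2 fold changes of 0.54 to 0.64 and adjusted p of 0.0540 to 0.0990, with DESeq2 (0.62, adjusted p = 0.0910), and with litter as a block (0.75, adjusted p = 0.181). In batch 1 alone the log2 fold change was 0.72 (adjusted p = 0.0669), and in batch 2 the gene did not pass the filter. *Ogg1* shares 232 bases of exon with *Camk1* on the opposite strand, whose log2 fold change between dKO-E and ctrl was −0.09 (SE 0.14). Genes that start within 1000 bases of one of the 9 and were tested, among them *Osgep* beside *Apex1* and *Efcab11* beside *Tdp1*, were not called.

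*Ung* (ENSMUSG00000029591.14, chromosome 5, 114130386 to 114139323), which acts on uracil in DNA, was low and, of the 9 genes, varied most among ctrl embryos. It ranged from 6.78 to 20.8 CPM in ctrl with a median of 10.2. Embryos A to E of cKO-E were at 9.32, 10.3, 10.7, 5.90 and 5.76 CPM, and in dKO-E it ranged from 4.86 to 11.3 with a median of 6.47. In dKO-E 4 of 7 embryos were below every ctrl embryo, without passing the test. *Ung* had log2 fold changes against ctrl of −0.38 for cKO-E (SE 0.25, adjusted p = 0.340) and −0.46 for dKO-E (SE 0.23, adjusted p = 0.185). Within batch 2 it was −1.43 for cKO-E (adjusted p = 0.0411) and −1.44 for dKO-E (adjusted p = 0.0513), whereas in batch 1 it was 0.12 and 0.02. With an embryo left out of the full comparison, *Ung* ranged from −0.49 to −0.19 in cKO-E and from −0.62 to −0.26 in dKO-E. Both values were nearest 0 without ctrl H, an embryo of batch 2.

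*Apex1* (ENSMUSG00000035960.13, chromosome 14, 50924968 to 50927139) encodes the main AP endonuclease. It ranged from 15.8 to 20.8 CPM in ctrl with a median of 19.0, and from 18.5 to 28.4 in dKO-E with a median of 22.4. In cKO-E the values were 15.3, 24.7, 18.8, 14.2 and 27.4 CPM, a spread of 28.9% of the mean against 9.84% in ctrl. In dKO-E 5 of 7 embryos were above every ctrl embryo, and the log2 fold change of 0.31 did not pass (SE 0.11, 95% interval 0.08 to 0.54, adjusted p = 0.0622). It passed without dKO-E A (0.36, adjusted p = 0.0344) and without ctrl H (0.35, adjusted p = 0.0418). Of its 1422 bases of exon, *Apex1* shares 877 with *Pip4p1* on the opposite strand, whose log2 fold change between dKO-E and ctrl was 0.09 (SE 0.17).

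*Polb* (ENSMUSG00000031536.6, chromosome 8, 22628126 to 22653435, minus strand) encodes the gap-filling polymerase. It ranged from 79.6 to 120 CPM in ctrl with a median of 97.8. The 5 cKO-E embryos were at 120, 117, 116, 117 and 105 CPM, and in dKO-E it ranged from 98.5 to 114 with a median of 108. All 12 mutant embryos were above the ctrl median, and none exceeded the highest ctrl embryo, D. *Polb* had log2 fold changes against ctrl of 0.22 for cKO-E (SE 0.08, adjusted p = 0.0625) and 0.12 for dKO-E (SE 0.07, adjusted p = 0.270). The value in cKO-E without ctrl D was 0.27 (adjusted p = 0.0160), and without cKO-E embryo E it was 0.26 (adjusted p = 0.0460).

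Of the end-processing genes, *Tdp1* was lower in dKO-E and *Aptx* was not called. *Tdp1* (ENSMUSG00000021177.16, chromosome 12, 99884517 to 99955219) carries the NRF1 letters shown above. It ranged from 77.0 to 96.6 CPM in ctrl with a median of 83.3. In cKO-E the values were 83.9, 68.8, 75.5, 62.5 and 67.8 CPM, and in dKO-E it ranged from 70.6 to 78.1 with a median of 72.1. In dKO-E 6 of 7 embryos, and in cKO-E 4 of 5, were below every ctrl embryo. *Tdp1* had a log2 fold change of −0.22 between dKO-E and ctrl (SE 0.06, 95% interval −0.35 to −0.09, adjusted p = 0.0191), and −0.23 between cKO-E and ctrl (SE 0.08, 95% interval −0.39 to −0.06, adjusted p = 0.0557). The value between the mutants was 0.01, with a 95% interval of −0.14 to 0.17. The value in cKO-E passed without ctrl A (−0.26, adjusted p = 0.0438), ctrl B (−0.24, adjusted p = 0.0483) or cKO-E embryo A (−0.30, adjusted p = 0.0198). The value in dKO-E was −0.19 in batch 1 (adjusted p = 0.157) and −0.29 in batch 2 (adjusted p = 0.252). With libraries scaled by total counts it was −0.13 (adjusted p = 0.166), and with litter as a block it was −0.12 (adjusted p = 0.491).

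*Aptx* (ENSMUSG00000028411.15, chromosome 4, 40682382 to 40703194, minus strand) ranged from 24.0 to 31.9 CPM in ctrl with a median of 28.4. The 5 cKO-E embryos were at 26.3, 33.5, 32.8, 43.6 and 30.5 CPM, and 3 of 5 embryos were above every ctrl embryo. In dKO-E it ranged from 20.6 to 32.5 CPM with a median of 27.3. The highest cKO-E value came from embryo D, the shallowest library, with 37 counts. Log2 fold changes of *Aptx* were 0.22 for cKO-E (SE 0.11, adjusted p = 0.209), −0.06 for dKO-E (SE 0.11, adjusted p = 0.784) and −0.27 between dKO-E and cKO-E (SE 0.14, adjusted p = 0.210).

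Counted over the 9 genes, 0 were called between cKO-E and ctrl at a false discovery rate of 0.05 in edgeR's quasi-likelihood test. In the same test 3 of 9 had an unadjusted p under 0.05, and 29.8% of all genes did. DESeq2 and the likelihood-ratio test called 0 as well, while 7 of 14 alternative settings called more, up to 2. With an embryo left out, 5 of 12 fits called 1. Of all 11660 genes tested between cKO-E and ctrl, 17.2% were called, 7.31% higher and 9.88% lower in cKO-E. Between dKO-E and ctrl, 2 of 9 were called higher and 1 lower, against 15.5% of 11381 genes in either direction, 5.45% higher and 10% lower. Between dKO-E and cKO-E, 1 of 9 was called, higher in dKO-E, against 15.0% of 11746 genes, 5.59% higher and 9.42% lower. The ranges of dKO-E and cKO-E did not overlap in 1 of 9 genes, *Xrcc1*, and in 6.76% of all genes. They overlapped in all 9 between cKO-E and ctrl, where 8.17% of all genes were separate, and in all 9 between dKO-E and ctrl, where 4.23% were. The median log2 fold change of the 9 genes was 0.07 in cKO-E, 0.10 in dKO-E and 0.05 between the mutants, and that of all genes was 0.02, 0.01 and 0.02. With libraries scaled by total counts instead, the share of called genes that was higher moved from 42.5% to 54.0% in cKO-E, from 35.2% to 72.0% in dKO-E and from 37.3% to 53.0% between the mutants. Of the 9 genes, *Aptx* changed sign in dKO-E and *Xrcc1* in cKO-E under that scaling, both uncalled. Both mutants were compared with the same 7 ctrl embryos. At a false discovery rate of 0.001, none of the 9 was called in any comparison with the quasi-likelihood test. The study used that threshold with a likelihood-ratio test.

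**Figure D3:**
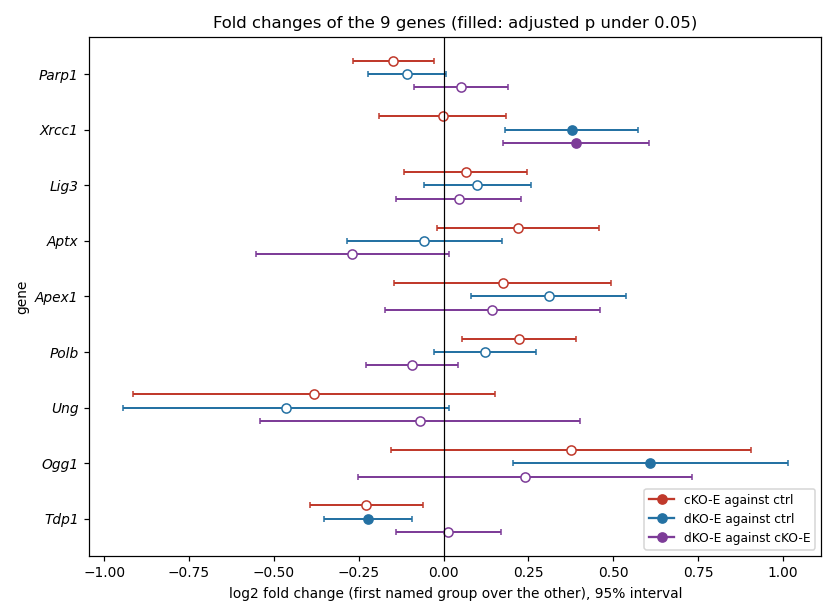
Log2 fold changes (x axis) of the 9 genes with 95% intervals in cKO-E against ctrl (red), dKO-E against ctrl (blue) and dKO-E against cKO-E (purple), where filled points had an adjusted p under 0.05. The 4 filled points are *Xrcc1* in both comparisons of dKO-E (0.38 and 0.39), *Ogg1* (0.61) and *Tdp1* (−0.22) in dKO-E against ctrl.

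Another 24 genes of the pathway were read from a list of 5 roles, of which 22 passed the filter. *Neil1*, a glycosylase gene with a mean of 2.79 CPM in ctrl, and *Parp3*, which had at most 1 count in any library, did not. Of the 22, 5 were called between cKO-E and ctrl (1 higher, 4 lower), 5 between dKO-E and ctrl (1 higher, 4 lower) and 2 between dKO-E and cKO-E (both higher). Of all genes tested, 17.2%, 15.5% and 15.0% were called in these comparisons. Medians were −0.02, 0.09 and 0.17 on the log2 scale. The 3 log2 fold changes farthest from 0 in cKO-E were all negative, in *Parp2*, *Neil3* and *Dut*.

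*Parp2* (ENSMUSG00000036023.5, chromosome 14, 50807841 to 50821301), the second poly(ADP-ribose) polymerase that responds to strand breaks, showed the largest change in the pathway. It ranged from 21.3 to 28.5 CPM in ctrl with a median of 25.6. In cKO-E the values were 9.99, 10.9, 12.2, 11.8 and 10.8 CPM. In dKO-E it ranged from 1.05 to 9.40 CPM with a median of 7.07, the lowest from 1 count in embryo G. No embryo of one group reached the range of another: every cKO-E embryo was below every ctrl embryo, and every dKO-E embryo was below every cKO-E embryo. *Parp2* had log2 fold changes against ctrl of −1.18 in cKO-E (SE 0.12, adjusted p = 4.33e-06), a level of 0.442 of ctrl, and −1.79 in dKO-E (SE 0.16, adjusted p = 2.72e-07), a level of 0.290 of ctrl. Between dKO-E and cKO-E it was −0.61 (SE 0.21, 95% interval −1.05 to −0.17, adjusted p = 0.0571), which missed the threshold, and passed it without dKO-E embryo B (−0.71, adjusted p = 0.0344) or G (−0.54, adjusted p = 0.0408). Within batch 1 the values against ctrl were −1.22 for cKO-E (adjusted p = 1.20e-04) and −1.72 for dKO-E (adjusted p = 2.72e-05), and within batch 2 they were −1.10 (adjusted p = 0.0238) and −2.23 (adjusted p = 0.00491). *Rpph1*, whose start is in the *Parp2* sequence shown above, was 437 ± 85.4 CPM in ctrl (SD, n = 7), 374 ± 79.2 in cKO-E (n = 5) and 273 ± 73.1 in dKO-E (n = 7). The log2 fold change of *Rpph1* was −0.22 for cKO-E (SE 0.13, adjusted p = 0.274) and −0.68 for dKO-E (SE 0.14, adjusted p = 0.00236).

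The other genes of poly(ADP-ribose) turnover did not pass in any comparison. *Parg*, which degrades the polymer, had log2 fold changes against ctrl of 0.06 for cKO-E (SE 0.05) and 0.06 for dKO-E (SE 0.05). *Adprhl2*, which removes the last ADP-ribose from serine, and *Hpf1*, the cofactor that directs PARP1 to serine, were at 0.26 (SE 0.18) and 0.02 (SE 0.10) in cKO-E and 0.22 (SE 0.19) and 0.18 (SE 0.08) in dKO-E.

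Among 9 further glycosylase genes, 8 passed the filter and *Neil3* alone was called. *Neil3* (ENSMUSG00000039396.11, chromosome 8, 53586867 to 53639065, minus strand), a glycosylase of proliferating cells, ranged from 107 to 135 CPM in ctrl with a median of 121. Embryos A to E of cKO-E were at 79.6, 82.0, 74.8, 63.7 and 76.6 CPM, and in dKO-E it ranged from 88.5 to 97.9 with a median of 94.4. The 3 groups were separate, with dKO-E between the others. *Neil3* had log2 fold changes against ctrl of −0.63 for cKO-E (SE 0.08, adjusted p = 2.83e-05), −0.34 for dKO-E (SE 0.06, adjusted p = 0.00125), and had one of 0.29 between dKO-E and cKO-E (SE 0.07, adjusted p = 0.00468). The difference between the mutants was 0.23 in batch 1 (adjusted p = 0.104) and 0.41 in batch 2 (adjusted p = 0.189).

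In the role of lesion source and nucleotide pool, 2 of 3 genes were called lower in both mutants. *Dut*, the dUTPase that keeps uracil out of DNA, ranged from 44.4 to 55.6 CPM in ctrl with a median of 48.8 and from 22.7 to 50.7 in dKO-E with a median of 35.8. In cKO-E the values were 36.3, 34.4, 28.7, 27.1 and 29.8 CPM, all below ctrl. The log2 fold change of *Dut* was −0.61 for cKO-E (SE 0.09, adjusted p = 2.14e-04) and −0.36 for dKO-E (SE 0.11, adjusted p = 0.0382). The call in dKO-E was lost with any 1 of 10 of the 14 embryos left out, those other than ctrl A and B and dKO-E B and C, at adjusted p of 0.0532 to 0.0925. *Top1*, topoisomerase I, whose trapped peptides TDP1 removes, was at 507 ± 42.3 CPM in ctrl (SD, n = 7), 421 ± 32.7 in cKO-E (n = 5) and 433 ± 35.8 in dKO-E (n = 7). The log2 fold change of *Top1* was −0.26 for cKO-E (SE 0.06, adjusted p = 0.00789) and −0.23 for dKO-E (SE 0.06, adjusted p = 0.00983). *Nudt1*, which clears oxidised nucleotides, was not called.

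Of 3 genes for end processing, *Apex2*, the second AP endonuclease, was called higher in both mutants. The log2 fold change of *Apex2* was 0.20 for cKO-E (SE 0.06, adjusted p = 0.0347) and 0.25 for dKO-E (SE 0.06, adjusted p = 0.00890), from means of 183 ± 16.7 CPM in ctrl (SD, n = 7), 209 ± 12.8 in cKO-E (n = 5) and 218 ± 15.4 in dKO-E (n = 7). The call in cKO-E was lost without ctrl C or H or cKO-E A, B, C or E, at adjusted p of 0.0511 to 0.101. *Apex2* shares 311 bases of exon with *Alas2*, an erythroid gene on the opposite strand. *Tdp2*, which removes topoisomerase II peptides, was called higher in dKO-E than cKO-E (log2 fold change 0.33, SE 0.11, adjusted p = 0.0437), at 60.6 ± 11.2 CPM (SD, n = 7) against 48.8 ± 3.42 (n = 5). It was lost without cKO-E A, B, C or D or dKO-E B, C, F or G, at adjusted p of 0.0626 to 0.120. *Aplf* was not called.

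With litter as a block, dKO-E and ctrl are compared within litter 1 alone, 3 against 2 embryos, and 585 of all genes were called in place of 1759. *Parp2* (−1.60, adjusted p = 0.0010) and *Xrcc1* (0.51, adjusted p = 0.0422) were called in dKO-E there. *Neil3* (−0.24, adjusted p = 0.115), *Top1* (−0.26, adjusted p = 0.0950), *Dut* (−0.05, adjusted p = 0.889), *Apex2* (0.16, adjusted p = 0.402), *Ogg1* and *Tdp1* were not. In cKO-E, *Top1* (−0.18, adjusted p = 0.0936) and *Apex2* (0.21, adjusted p = 0.111) lost their calls with litter as a block, and *Tdp1* passed (−0.32, adjusted p = 0.0141). Within batch 1, *Neil3* (−0.32, adjusted p = 0.0149) and *Top1* (−0.24, adjusted p = 0.0448) were called in dKO-E, while *Dut* (−0.22, adjusted p = 0.285) and *Apex2* (0.16, adjusted p = 0.151) were not. With total counts, *Dut* (−0.26, adjusted p = 0.109) and *Top1* (−0.14, adjusted p = 0.0749) were not called in dKO-E.

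None of the 4 genes of gap filling and long-patch repair was called. *Fen1*, the flap endonuclease, *Lig1*, the replicative ligase, and *Pcna*, the sliding clamp, had log2 fold changes between dKO-E and cKO-E of 0.31 (SE 0.13, adjusted p = 0.118), 0.26 (SE 0.10, adjusted p = 0.0738) and 0.30 (SE 0.14, adjusted p = 0.157). *Poll* was at −0.21 (SE 0.29).

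**Figure D4:**
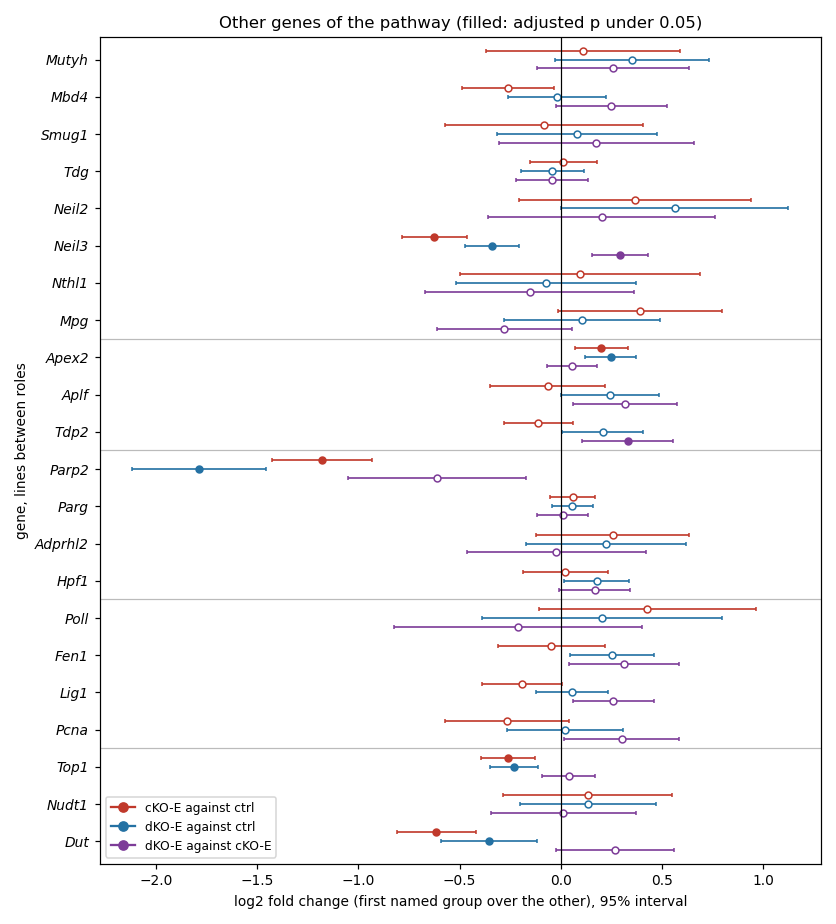
Log2 fold changes (x axis) with 95% intervals of the 22 other pathway genes that passed the filter, in cKO-E against ctrl (red), dKO-E against ctrl (blue) and dKO-E against cKO-E (purple), where filled points had an adjusted p under 0.05 and grey lines separate the 5 roles. *Parp2* lies farthest from 0, at −1.18 and −1.79 against ctrl.

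**Figure D5:**
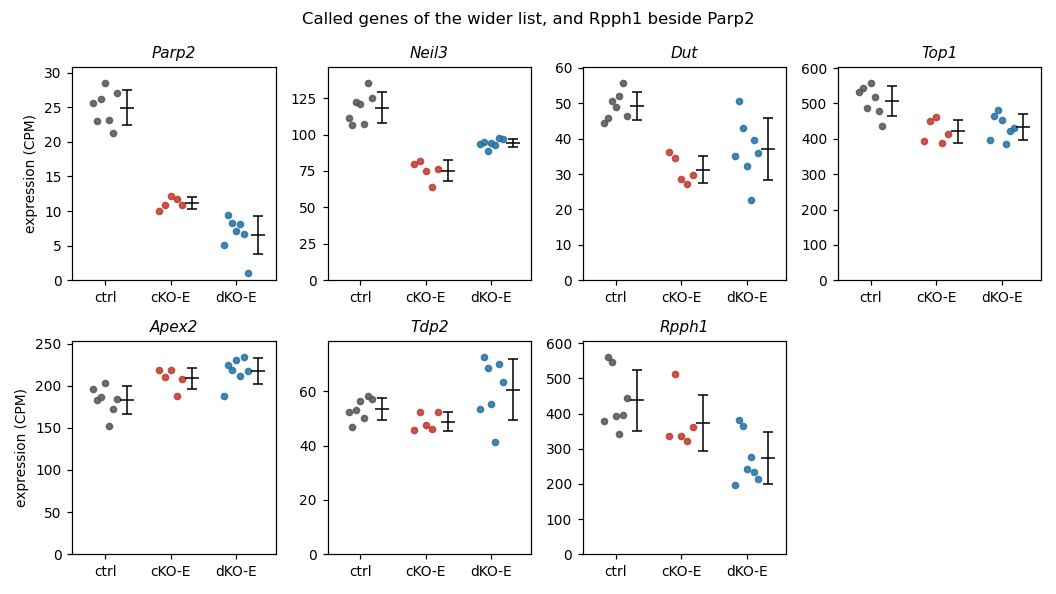
Expression in CPM (y axis, from 0) in each embryo of the 6 called genes of the list and of *Rpph1*, with the mean ± SD of each group (ctrl n = 7, cKO-E n = 5, dKO-E n = 7) in black. For *Parp2* and *Neil3* the 3 groups do not overlap, with *Parp2* falling from a median of 25.6 CPM in ctrl to 7.07 in dKO-E.

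Markers of cell types were read in the same comparisons as these genes. Of all genes tested, 17.2% were called between cKO-E and ctrl, 15.5% between dKO-E and ctrl and 15.0% between dKO-E and cKO-E. Called counts of 1 in 6 or 1 in 7 markers are near these shares. All 7 markers of cycling cells (*Mki67*, *Top2a*, *Cdk1*, *Ccnb1*, *Aurkb*, *Mcm5* and *Mcm6*) were detected in every library, and their summed level was 1429 to 1750 CPM in ctrl, 1108 to 1455 in cKO-E and 1235 to 1878 in dKO-E. Of the 7, 3 were called lower in cKO-E than in ctrl, 1 was called higher in dKO-E than in ctrl, and 4 were called higher in dKO-E than cKO-E. Apical progenitor markers, of which 6 were tested, summed to 954 to 1062 CPM in ctrl, 817 to 1061 in cKO-E and 856 to 1044 in dKO-E. Against ctrl, 3 of them were called lower and 1 higher in cKO-E, and 1 lower in dKO-E, and between dKO-E and cKO-E 1 was called in each direction. The 4 intermediate progenitor markers summed to 356 to 451, 290 to 377 and 283 to 431 CPM in the same order of groups, and 2 were called lower in cKO-E than in ctrl and none in the other comparisons. Neuron markers, of which 6 were tested, summed to 1347 to 2398 CPM in ctrl, 1766 to 2337 in cKO-E and 1168 to 1883 in dKO-E, and 1 was called higher in cKO-E and 1 lower in dKO-E than in ctrl, and 3 lower in dKO-E than cKO-E. The 7 microglia markers summed to 3.65 to 15.4 CPM in ctrl, 21.3 to 26.9 in cKO-E and 4.05 to 7.47 in dKO-E. Of these, 2 passed the filter in the comparisons with cKO-E, and both were called higher in cKO-E than in ctrl and lower in dKO-E than cKO-E. Between dKO-E and ctrl 1 microglia marker passed the filter, at a log2 fold change of −0.13, and was not called. The 5 interneuron markers, of cells outside the *Emx1* lineage, summed to 5.43 to 66.3, 53.5 to 97.2 and 23.9 to 60.1 CPM. Of 3 that were tested, 1 was called higher in cKO-E than in ctrl and all 3 lower in dKO-E than cKO-E, and of 2 tested between dKO-E and ctrl none was called. Which microglia and interneuron markers passed the filter depended on the groups compared, so these counts are no test of a shift. Endothelial markers summed to 31.2 to 77.7 CPM and erythroid markers to 33.6 to 120 CPM over all libraries, and none of either was called. Whether these marker levels bear on the values of *Xrcc1*, *Neil3*, *Dut* and the other genes was not tested.

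The genes whose log2 CPM followed *Xrcc1* most closely over the 19 libraries, of 11305 genes compared, were *Lats2* (Pearson's r 0.87), *Gatad2a* (0.85), *Mob2* (0.85), *Tfdp1* (0.83) and *Ankrd10* (0.83). The most opposite were *Syt14* (−0.85), *Bdh1* (−0.84) and *Kidins220* (−0.84). These coefficients describe 19 libraries that share groups, litters and depth.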

How the data were processed

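Total RNA of E13.5 cortex, depleted of ribosomal RNA, was made into libraries by Click-seq, which joins a molecular identifier to each cDNA, in 19 embryos. Per the submitters' processing notes and the study's methods, reads were demultiplexed with bcl2fastq 2.17, trimmed with cutadapt 1.13, aligned to mm10 with STAR 2.5.2a, deduplicated with UMI-tools 0.5.3 and counted with HTSeq 0.6.1p1 in intersection-nonempty mode. The authors deposited 1 table of raw counts per embryo. The strand setting, the feature type of the counting and the annotation release are not given in the sources used here. Zeros of genes inside other genes show counting by strand over whole gene spans. Reads assigned to no gene, 23.3% to 31.8% per library, were left out.

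From the deposited counts, genes were filtered with filterByExpr (minimum count 10), scaled with TMM factors and tested with edgeR 4.0.16 (quasi-likelihood test, R 4.3.3) in each pair of groups. Adjustment of p-values followed Benjamini and Hochberg over all genes tested, and genes were called at a false discovery rate of 0.05. The study used edgeR 3.20.9 with a likelihood-ratio test at 0.001. Here, with edgeR 4.0.16, the likelihood-ratio test at 0.05 and the quasi-likelihood test at 0.001 were run as separate alternatives, and the study's settings were not combined. Other alternatives were DESeq2 1.42.0, other filters, factors and covariates, and each embryo left out in turn. Scripts were tested on simulated data. Standard errors are the fold change divided by the root of the F statistic. A fold change of a gene near 0 counts depends on the prior count of the fit.

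Of the counted identifiers, 51719 matched GENCODE M21 (GRCm38) without their version and 193 did not. *Adprs* was read under its older symbol *Adprhl2*. RefSeq upstream windows (GRCm38.p6) were given for 8 of the 9 genes and for 20 of the 24 others, and none was given for *Polb*. Named genes were the 9, the called genes of the list of 24, *Ino80* and *Trp53*, neighbours in exons or at starts, and the genes most like and unlike *Xrcc1*, the one with the smallest p. *Parg*, *Hpf1*, *Fen1* and the other uncalled genes of the list that the text names were chosen after their values were seen. A further gene was left out of the list and its counts and is not reported here. The 9 genes and the lists were chosen with earlier results of these data known. In a chi-square test of counts, every pair of libraries within a group differed beyond sampling noise.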

Additional observations from a re-analysis of the deposited data

Results flagged for a closer look

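In cKO-E, embryo E was apart from the other 4 in 2 of the 9 genes, by Dixon's test at the 95% level: it was lowest in *Xrcc1* at 40.3 CPM and lowest in *Polb* at 104.7 CPM. In all, 45 groups of values were examined in this way, and chance flags about 1 in 20. Without embryo E the log2 fold change between dKO-E and cKO-E was 0.34 in *Xrcc1* (adjusted p = 0.0390). Differences between the mutants that passed their own test were flagged in 3 genes: 0.39 on the log2 scale in *Xrcc1*, 0.29 in *Neil3* and 0.33 in *Tdp2*, each higher in dKO-E than cKO-E.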

How the results depend on the processing

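The values rest on 5 to 7 embryos a group and, for *Ogg1*, on 5 to 41 counts per library, and batch, sex and litter were not balanced. Of the 9 genes, 0 were called in cKO-E against ctrl, and 1 with at least 10 counts in every library, with total counts, with sex as a term, with litter as a block or in batch 2 alone (an alternative chosen after the data were seen), 2 with batch as a term or with 1 fit over all libraries, and 0 to 1 with an embryo left out. In dKO-E against ctrl, 3 were called, and 1 with at least 1 count in all, with litter as a block or in batch 1 alone, 0 at a false discovery rate of 0.001, 0 in batch 2 alone, and 2 to 4 with an embryo left out. Between dKO-E and cKO-E, 1 was called, and 0 at 0.001 and 0 in either batch alone. Of genes uncalled in the main test of cKO-E against ctrl, *Polb* passed in 5 of 14 alternative settings, *Tdp1* in 3 of 14 and *Ung* in 1 of 13. In dKO-E against ctrl, *Apex1* passed in 4 of 14 and *Polb* in 1 of 14.

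In the list of 24, calls in cKO-E went from 5 to 3 with litter as a block, at 0.001 and in batch 2 alone. In dKO-E they went from 5 to 1 under the same 3 settings and to 8 with total counts. Between the mutants 2 became 4 with at least 1 count in all or total counts, 6 with sex as a term, 0 at 0.001 and in batch 2 alone, and 1 to 4 with an embryo left out. Over all genes, calls in cKO-E went from 2004 to 394 at 0.001 and 606 in batch 2 alone, those in dKO-E from 1759 to 294, 356 and, with litter as a block, 585, and those between the mutants from 1763 to 368 and 305. With an embryo left out they were 1426 to 2157, 1368 to 1904 and 1135 to 1830. The cause was not tested.

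Sign changes occurred in uncalled values, among them *Ung*. Its log2 fold changes were -0.38 in cKO-E (95% interval -0.92 to 0.15) and -0.46 in dKO-E (95% interval -0.95 to 0.02). For *Xrcc1* in cKO-E (-0.00) they were 0.00039 with the likelihood-ratio test, 0.0014 with at least 10 counts in every library, 0.030 with total counts, 0.00074 with batch as a term, 0.078 in batch 1 alone and -0.026 to 0.042 with an embryo left out. *Ung* was 0.12 in batch 1 in cKO-E, and in dKO-E 0.024 in batch 1 and 0.030 with litter as a block. *Lig3* in cKO-E was -0.13 in batch 2. *Aptx* in dKO-E was 0.039 with total counts, 0.20 in batch 2 and -0.10 to 0.027 with an embryo left out. Between the mutants, *Lig3* was -0.0064 and *Tdp1* -0.031 in batch 1, *Parp1* -0.014 and *Apex1* -0.12 in batch 2, and with an embryo left out *Ung* ranged from -0.22 to 0.012 and *Tdp1* from -0.012 to 0.077.

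The letters of the embryos do not pair them: deviations of same-letter embryos from their group means correlated at -0.02 to 0.13 over 4 pairs in cKO-E and ctrl, -0.37 to 0.11 over 5 pairs in dKO-E and ctrl, and -0.09 to 0.12 over 5 pairs in the mutants. With the letter as a replicate block, calls in dKO-E against ctrl went from 3 to 0 of the 9 genes, from 5 to 3 of the list and from 1759 to 1018 of all genes, *Xrcc1* in dKO-E was 0.40 (adjusted p = 0.0502), *Xrcc1* in cKO-E was 0.10 and *Ung* in cKO-E 0.021. Litter as a block could not be fitted between dKO-E and cKO-E, which share no litter.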
